A study of Mus musculus with 9 samples.

Results

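Collagen genes were examined in mouse hearts under pressure load, with and without a delivered fragment of histone deacetylase 4 (HDAC4). The members were all genes of the array whose symbol is Col, a number, a and a number, as in Col1a1. They made up 44 of the 20239 named genes, each with 1 probe set. All 44 matched a RefSeq gene by gene ID, with the same symbol.

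Collagens are matrix proteins of chains wound around each other in a helix of repeated glycine-containing triplets. Fibrillar collagens, mainly types I and III in the heart, form the fibres that bear tension between muscle cells, and fibril-associated collagens sit on the surface of those fibres. Type IV collagen forms the sheet of the basement membrane around cardiomyocytes and vessels, type VI forms beaded filaments that link it to the interstitium, and type VIII forms open networks, best known in vessel walls and the eye. In the heart most collagen is made by fibroblasts, and deposition of fibrillar collagen under pressure load is known as fibrosis.

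The hearts came from male C57BL/6 mice in 3 groups of 3 arrays, 1 whole heart per array. In the TAC-HDAC4-NT group, an adeno-associated virus carried amino acids 1 to 201 of HDAC4, and the mice then underwent transaortic constriction (TAC), which narrows the aorta. The TAC-luciferase group had the same surgery with a virus carrying luciferase, and the sham-luciferase group had that luciferase virus and sham surgery, and is called sham below. The virus was given at 8 weeks of age in all groups, surgery followed after 4 weeks and hearts were collected 4 weeks later. The MLC promoter, an abbreviation that the labels do not expand, drove the viral cargo, and no sham group received the fragment.

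Values are log2 expression after RMA (robust multi-array average), so a difference of 1 is a 2-fold change. RMA compresses low values, and fold changes of weakly detected collagens are understated. All 8 cardiomyocyte markers checked, among them Myh6, Tnnt2 and Actc1, lay above the filter value on all 9 arrays. TAC-luciferase heart 1 stood apart from its group: across tested genes it correlated at 0.986 to 0.987 with the other TAC-luciferase hearts and at 0.991 to 0.992 with the TAC-HDAC4-NT hearts. The labels also carry a sample code whose first number is 3 or 4 in TAC-HDAC4-NT, 8 in TAC-luciferase heart 1, 9 in TAC-luciferase hearts 2 and 3, and 12 in sham hearts. What it stands for is not stated, and since no number occurs in 2 groups, what it stands for and the group cannot be told apart. The main counts that rest on the TAC-luciferase group are also given without heart 1.

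To be tested, a gene had to exceed a log2 value of 5.66, the 40th percentile of the whole table, in 3 or more of the 9 hearts. Of the 44 collagens, 39 passed, 33 of them on all 9 arrays. Col12a1 and Col4a3 passed only through the 6 TAC arrays and Col4a4 through 5 TAC arrays, so those members were tested because they were higher there. The 5 members not tested were Col4a6, Col6a5, Col10a1, Col24a1 and Col25a1. They stayed between 5.41 and 5.65 on all arrays and no difference is given for them. A gene was called changed at a limma adjusted p under 0.05, with Benjamini-Hochberg adjustment over all 12597 genes tested.

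In TAC-HDAC4-NT against sham, 15 of the 39 tested collagens were called, where 22.8% of all tested genes were. Of these 14 were higher, where 10.5% of all tested genes were, and 1 was lower, where 12.3% were. In TAC-luciferase against sham, 16 of 39 were called (26.1% of all tested genes), 15 of them higher (11.2%) and 1 lower (14.9%). Without TAC-luciferase heart 1 those counts were 14 higher and 1 lower. The higher counts of both comparisons include Col12a1, which passed the filter only through the TAC hearts. Hearts did not overlap with sham for 20 of 39 collagens in TAC-HDAC4-NT (39.7% of all tested genes) and for 20 of 39 in TAC-luciferase (37.4%), counts that include members that passed the filter through the TAC hearts. At an unadjusted p of 0.05 there were 20 of 39 in TAC-HDAC4-NT (33.8% of all tested genes) and 19 of 39 in TAC-luciferase (37.2%). Each comparison had 6 collagens past the threshold with at least a 2-fold difference, against 1.28% of all tested genes in TAC-HDAC4-NT and 1.68% in TAC-luciferase. The median log2 difference of the tested collagens was 0.08 in TAC-HDAC4-NT and 0.07 in TAC-luciferase, and that of all tested genes was -0.01 in both. These comparisons share the sham arrays, so they are not independent of each other. Arrays of whole hearts cannot tell a change in the number of collagen-producing cells from a change in collagen RNA per cell.

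**Figure D1:**
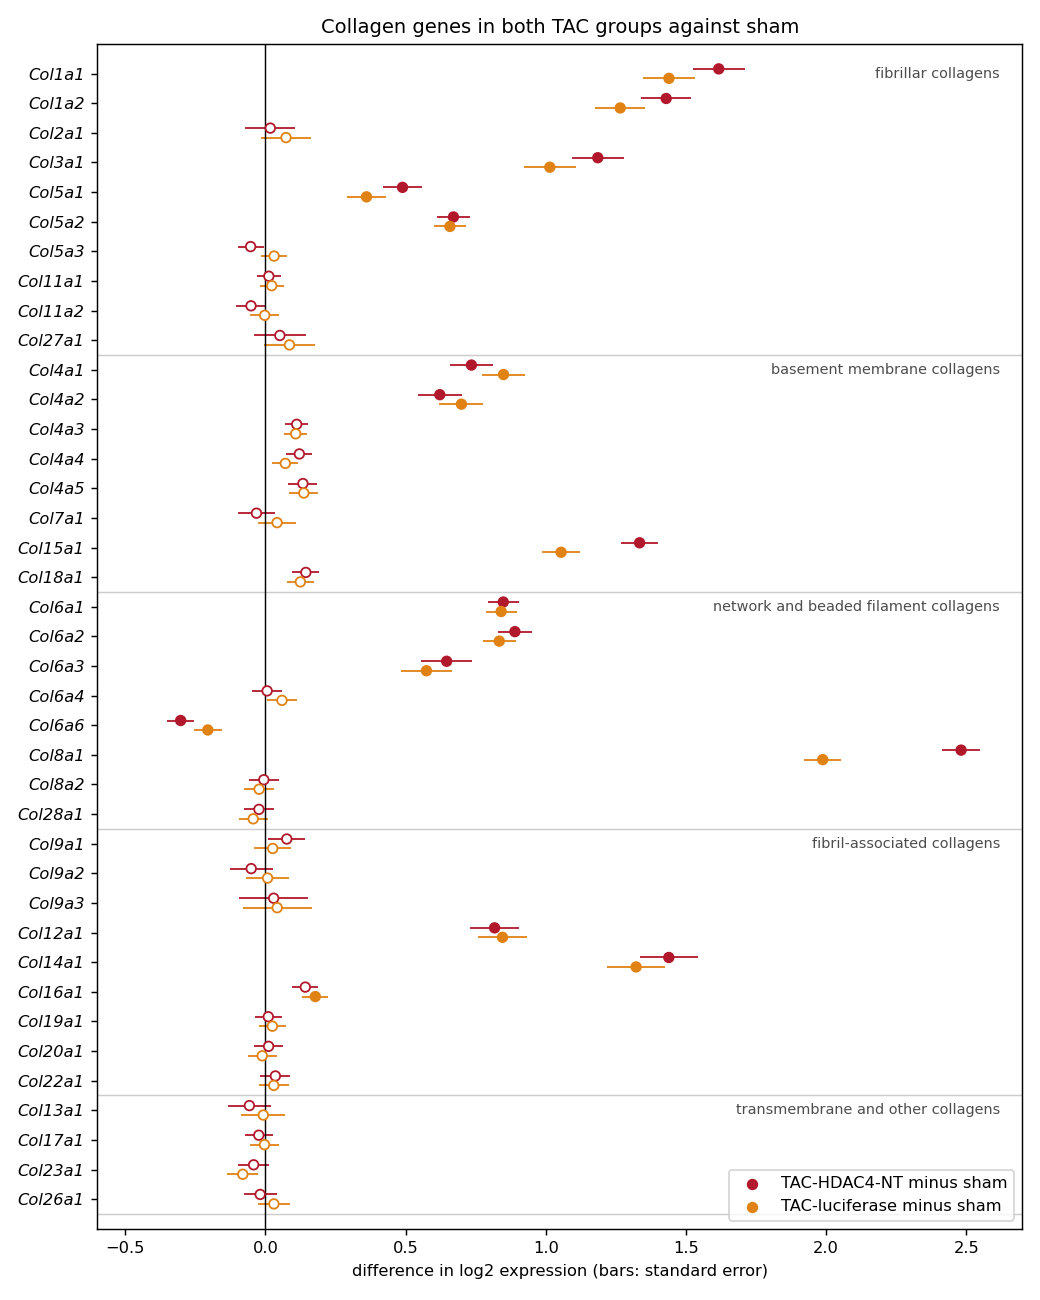
Difference in log2 expression from sham for the 39 tested collagens, ordered by type, in TAC-HDAC4-NT (red) and TAC-luciferase (orange) hearts, 3 arrays a group, with standard errors from limma. Filled points passed an adjusted p of 0.05, and Col8a1 lies farthest to the right, at 2.48 in TAC-HDAC4-NT and 1.99 in TAC-luciferase.

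Among the fibrillar collagens, 5 of the 10 tested exceeded sham in TAC-HDAC4-NT (10.5% of all tested genes), and 5 of 10 in TAC-luciferase (11.2%). They were the chains of types I, III and V found in interstitial fibres: Col1a1, Col1a2, Col3a1, Col5a1 and Col5a2. Col1a1, the alpha-1 chain of type I collagen, measured 9.15, 9.23 and 9.28 in the TAC-HDAC4-NT hearts, 9.23, 8.92 and 8.98 in the TAC-luciferase hearts, and 7.46, 7.71 and 7.65 in the sham hearts. Both TAC groups lay above every sham heart, and TAC-luciferase heart 1 lay within the range of the TAC-HDAC4-NT hearts. Col1a1 was 3.07-fold higher in TAC-HDAC4-NT than in sham (log2 difference 1.62, SE 0.09, limma adjusted p 1.06e-05) and 2.71-fold higher in TAC-luciferase than in sham (1.44, SE 0.09, limma adjusted p 2.00e-05).

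Col1a2, the alpha-2 chain that joins Col1a1 in the type I molecule, measured 9.13, 9.10 and 9.25 in TAC-HDAC4-NT, 9.15, 9.02 and 8.82 in TAC-luciferase, and 7.67, 7.84 and 7.68 in sham hearts. It was 2.69-fold higher in TAC-HDAC4-NT and 2.40-fold higher in TAC-luciferase than in sham. Col3a1, the only chain of type III collagen, the finer and more compliant fibre, measured 8.06, 8.16 and 8.24 in TAC-HDAC4-NT, 8.15, 7.91 and 7.88 in TAC-luciferase, and 6.93, 7.12 and 6.85 in sham hearts. Its fold change was smaller, at 2.27 in TAC-HDAC4-NT and 2.02 in TAC-luciferase against sham. For both genes the TAC hearts lay above all sham hearts.

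Type V collagen is built into type I fibres and starts their assembly. Its chain Col5a2 was 1.59-fold higher in TAC-HDAC4-NT and 1.58-fold higher in TAC-luciferase than in sham, with TAC hearts at 6.48 to 6.64 and sham hearts at 5.89 to 5.93. Col5a1 was 1.40-fold and 1.28-fold higher in those comparisons. The third chain, Col5a3, did not pass: its log2 difference from sham was -0.05 in TAC-HDAC4-NT (adjusted p 0.49) and 0.03 in TAC-luciferase (adjusted p 0.698), and its hearts overlapped with sham in both. The other tested fibrillar genes are known from cartilage, as are Col2a1, Col11a1, Col11a2 and Col27a1, and these 4 stayed between -0.05 and 0.09 of sham with no call. Markers of cartilage and valve had a mean log2 level of 5.79 to 5.86 in TAC-HDAC4-NT, 5.74 to 5.91 in TAC-luciferase and 5.53 to 5.59 in sham hearts, and 3 of 8 were tested. Of these, 2 were higher in TAC-HDAC4-NT than in sham, Comp (1.44) and Sox9 (0.65), where 10.5% of all tested genes were. In TAC-luciferase 1 was higher, Comp (1.61), where 11.2% of all tested genes were. Of the 8 markers, 1 lay above the filter value on all arrays. Comp averaged 5.56 in sham hearts, under the filter value, so its calls in both comparisons are tied to how it passed the filter. The part of cartilage and valve cells in the collagen values was not tested.

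For the sequences behind the type I and III genes, the 250 bases before the annotated start were taken from RefSeq (GRCm38.p6), which holds such a window for 35 of the 44 members. Col1a2 and Col3a1 are shown because they encode the main fibre types and were higher in both TAC groups than in sham. Col1a1 has no window in the table. Capitals mark any match, on either strand, to 5 motifs searched. These were the TATA box, searched as TATAAA, the CCAAT box, searched by those letters, the GC box of Sp1-type factors, searched as GGGCGG, and the AP-1 site, searched as TGANTCA, beside the consensus of MEF2 factors. The Col1a2 window is chr6:4505368-4505617 on the plus strand and the Col3a1 window chr1:45311288-45311537 on the plus strand.
Col1a2: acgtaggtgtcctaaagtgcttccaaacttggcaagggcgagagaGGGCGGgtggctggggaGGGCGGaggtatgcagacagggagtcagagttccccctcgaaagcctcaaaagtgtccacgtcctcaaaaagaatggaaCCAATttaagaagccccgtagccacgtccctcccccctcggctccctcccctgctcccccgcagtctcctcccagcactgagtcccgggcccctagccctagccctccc
Col3a1: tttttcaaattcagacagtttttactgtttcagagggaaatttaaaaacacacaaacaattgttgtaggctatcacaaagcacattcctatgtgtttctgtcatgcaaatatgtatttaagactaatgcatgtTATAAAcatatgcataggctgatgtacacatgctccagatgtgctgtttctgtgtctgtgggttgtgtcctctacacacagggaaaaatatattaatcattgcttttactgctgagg
Counted from the annotated start, Col1a2 holds a CCAAT box at -109 and GC boxes at -205 and -188. Col3a1 holds TATA box letters at -117 and no other motif of the 5. The CCAAT box letters occur in 33.8%, those of the GC box in 32.7% and those of the TATA box in 12.4% of all 32851 mouse windows of this length. A match describes the letters only.

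Of the basement membrane collagens, 3 of 8 tested exceeded sham in TAC-HDAC4-NT (10.5% of all tested genes), and 3 of 8 in TAC-luciferase (11.2%). Col4a1 and Col4a2 encode the alpha-1 and alpha-2 chains of the ubiquitous type IV network. Col4a1 measured 8.36, 8.32 and 8.38 in TAC-HDAC4-NT, 8.33, 8.48 and 8.59 in TAC-luciferase, and 7.48, 7.66 and 7.71 in sham hearts. Col4a2 measured 8.53, 8.56 and 8.56 in TAC-HDAC4-NT, 8.49, 8.70 and 8.69 in TAC-luciferase, and 7.79, 8.05 and 7.95 in sham hearts. All TAC hearts exceeded all sham hearts for both genes, and TAC-luciferase heart 1 was the lowest of its group in both. Col4a1 was 1.66-fold higher in TAC-HDAC4-NT (adjusted p 0.000251, limma) and 1.80-fold higher in TAC-luciferase (adjusted p 0.00011, limma) than in sham, and Col4a2 was 1.54-fold and 1.62-fold higher in those comparisons.

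Col4a1 and Col4a2 are neighbours on chromosome 8 that are read in opposite directions, with annotated starts 21 bases apart. Col4a3 with Col4a4 on chromosome 1 and Col4a5 with Col4a6 on the X chromosome are also neighbours. These encode the chains of the specialised type IV networks known from kidney and other basement membranes. Of them, Col4a3, Col4a4 and Col4a5 were tested and none passed. Against sham they differed by 0.11, 0.12 and 0.13 log2 units in TAC-HDAC4-NT hearts, and by 0.11, 0.07 and 0.14 in TAC-luciferase hearts, with adjusted p-values between 0.0812 and 0.318. Their TAC hearts lay above their sham hearts. For Col4a3 and Col4a4, which passed the filter only through TAC hearts, this separation is tied to the filter.

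Col15a1, whose product anchors basement membranes to the interstitium and is abundant in heart muscle, had the largest difference among the basement membrane genes. It measured 8.62, 8.75 and 8.69 in TAC-HDAC4-NT hearts, 8.44, 8.31 and 8.48 in TAC-luciferase hearts, and 7.42, 7.40 and 7.25 in sham hearts. The 3 groups did not overlap. It was 2.52-fold higher in TAC-HDAC4-NT and 2.08-fold higher in TAC-luciferase than in sham (limma adjusted p 4.94e-06 and 1.78e-05). Its relative Col18a1, the precursor of endostatin, stood at 0.14 in TAC-HDAC4-NT (adjusted p 0.0579) and 0.12 in TAC-luciferase (adjusted p 0.0853) on the log2 scale and did not pass. Col7a1, of the anchoring fibrils of skin, stood at -0.03 in TAC-HDAC4-NT and 0.04 in TAC-luciferase.

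Of the network and beaded filament collagens, 4 of 8 tested were higher and 1 was lower in TAC-HDAC4-NT than in sham, and 4 and 1 were the counts in TAC-luciferase as well. The shares of all tested genes were 10.5% higher and 12.3% lower in TAC-HDAC4-NT, and 11.2% and 14.9% in TAC-luciferase. Col8a1, a chain of the short network-forming type VIII collagen, had the largest difference from sham of all tested collagens in both comparisons. It measured 9.72 in each of the TAC-HDAC4-NT hearts, 9.27, 9.30 and 9.11 in the TAC-luciferase hearts, and 7.12, 7.32 and 7.27 in the sham hearts. The 3 groups did not overlap, and the TAC-HDAC4-NT hearts had an SD of 0.0024 for this gene. Col8a1 was 5.58-fold higher in TAC-HDAC4-NT (log2 difference 2.48, SE 0.07, limma adjusted p 2.78e-07) and 3.97-fold higher in TAC-luciferase (1.99, SE 0.07, limma adjusted p 1.09e-06) than in sham.

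Col8a2, the other type VIII chain, measured 5.78, 5.82 and 5.75 in TAC-HDAC4-NT, 5.81, 5.75 and 5.75 in TAC-luciferase, and 5.71, 5.87 and 5.79 in sham hearts. These groups overlapped, in a range close to the filter value, and the gene was not called. The type VI chains Col6a1, Col6a2 and Col6a3, which form the beaded filaments of muscle, were higher than in sham by 0.85, 0.89 and 0.65 log2 units in TAC-HDAC4-NT and by 0.84, 0.83 and 0.57 in TAC-luciferase. Col6a1 and Col6a2 are neighbours on chromosome 10 and differed from sham by nearly equal amounts.

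The genes of the additional type VI chains, Col6a4, Col6a5 and Col6a6, lie next to each other on chromosome 9 and none was called higher. Col6a5 was not tested, and Col6a6 was the collagen called lower. It measured 5.75, 5.69 and 5.72 in TAC-HDAC4-NT, 5.80, 5.83 and 5.82 in TAC-luciferase, and 6.09, 6.02 and 5.95 in sham hearts. The 3 groups did not overlap, in a range close to the filter value. Its log2 difference from sham was -0.30 in TAC-HDAC4-NT (SE 0.05, limma adjusted p 0.00224) and -0.21 in TAC-luciferase (SE 0.05, limma adjusted p 0.0136). Col6a4 stood at 0.01 and 0.06, without a call. The probe sequences were not used here, so cross-hybridisation between these related genes was not tested.

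The 250 bases before the starts of Col8a1 and Col6a6 are shown because Col8a1 had the largest difference from sham and Col6a6 was the collagen called lower, with the same letters in capitals. The windows are chr16:57754738-57754987 and chr9:105828086-105828335 (RefSeq, GRCm38.p6), both on the minus strand and written 5′ to 3′ toward the gene.
Col8a1: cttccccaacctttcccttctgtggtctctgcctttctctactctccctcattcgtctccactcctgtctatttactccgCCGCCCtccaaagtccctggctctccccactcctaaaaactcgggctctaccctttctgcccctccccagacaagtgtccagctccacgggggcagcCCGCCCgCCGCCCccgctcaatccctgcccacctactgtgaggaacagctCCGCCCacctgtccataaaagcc
Col6a6: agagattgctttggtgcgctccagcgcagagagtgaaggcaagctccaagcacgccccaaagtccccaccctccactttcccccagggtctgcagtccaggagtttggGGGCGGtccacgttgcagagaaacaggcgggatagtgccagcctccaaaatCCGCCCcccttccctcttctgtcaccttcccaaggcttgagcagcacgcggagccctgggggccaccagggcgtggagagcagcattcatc
Col8a1 holds GC box letters on its opposite strand at -170, -73, -66 and -23, and Col6a6 holds them at -142 and, on the opposite strand, at -91. Of the 11 collagens higher in TAC-luciferase that have a window, 6 hold GC box letters, 4 those of the CCAAT box, 1 those of the TATA box, 1 those of the AP-1 site and 0 the MEF2 consensus. Of all 35 collagens with a window, called or not, those counts were 21, 13, 5, 1 and 1 in the same order. Of all mouse windows, 32.7% hold the GC box letters, 33.8% those of the CCAAT box and 12.4% those of the TATA box. The AP-1 letters occur in 6.75% of them and the MEF2 consensus in 2.92%. MEF2 factors are the transcription factors that HDAC4 is best known to repress.

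Of the fibril-associated collagens, 2 of 9 tested exceeded sham in TAC-HDAC4-NT (10.5% of all tested genes), and 3 of 9 in TAC-luciferase (11.2%). Both counts include Col12a1, which passed the filter only through TAC hearts. Col14a1, which sits on type I fibres and limits their lateral growth, measured 7.79, 7.65 and 7.67 in TAC-HDAC4-NT, 7.80, 7.36 and 7.59 in TAC-luciferase, and 6.23, 6.37 and 6.19 in sham hearts. It was 2.71-fold higher in TAC-HDAC4-NT than in sham, and its log2 difference was 1.44 there and 1.32 in TAC-luciferase. Col12a1, its counterpart in dense and developing connective tissue, measured 6.28, 6.13 and 6.50 in TAC-HDAC4-NT, 6.27, 6.43 and 6.29 in TAC-luciferase, and 5.48, 5.48 and 5.50 in sham hearts. All sham hearts lay under the filter value and all TAC hearts above it. The gene was tested because of its TAC hearts, so this separation is not independent of the filter. The difference from sham was 0.82 log2 units in TAC-HDAC4-NT and 0.85 in TAC-luciferase, and without a filter the gene was called in both comparisons too.

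Col16a1, a fibril-associated collagen found in many tissues, was at the edge of detection of a difference. It measured 5.96, 5.96 and 5.89 in TAC-HDAC4-NT, 6.00, 5.99 and 5.93 in TAC-luciferase, and 5.75, 5.81 and 5.82 in sham hearts. It passed in TAC-luciferase (log2 difference 0.18, limma adjusted p 0.021) and not in TAC-HDAC4-NT (0.14, limma adjusted p 0.0571), and the TAC groups did not differ by test (-0.04, limma adjusted p 0.817). It was the only collagen higher in TAC-luciferase that lost its call when 1 array was left out, which happened without sham heart 1, TAC-luciferase heart 1 or TAC-luciferase heart 2, with limma adjusted p-values up to 0.0669. The cartilage chains Col9a1, Col9a2 and Col9a3 and the genes Col19a1, Col20a1 and Col22a1 were not called, with log2 differences from sham of -0.05 to 0.08 in TAC-HDAC4-NT and -0.01 to 0.04 in TAC-luciferase.

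Of the transmembrane and other collagens, 0 of 4 tested passed in either comparison, and 0 of 4 reached an unadjusted p of 0.05. Among all tested genes, 22.8% passed in TAC-HDAC4-NT and 26.1% in TAC-luciferase, and 33.8% and 37.2% reached that unadjusted level. The 4 tested were Col13a1, found at the neuromuscular junction, Col17a1, a hemidesmosome protein of skin, Col23a1 and Col26a1. The 23 tested collagens called in neither comparison with sham varied little, by 0.07 to 0.47 log2 units from lowest to highest array. Sham heart 2 was the highest of the sham hearts in 18 of these 23, and TAC-luciferase heart 1 the highest of its group in 16. TAC-HDAC4-NT heart 3 was the lowest of its group in 17. Whether these counts differ from those of other genes was not tested.

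**Figure D2:**
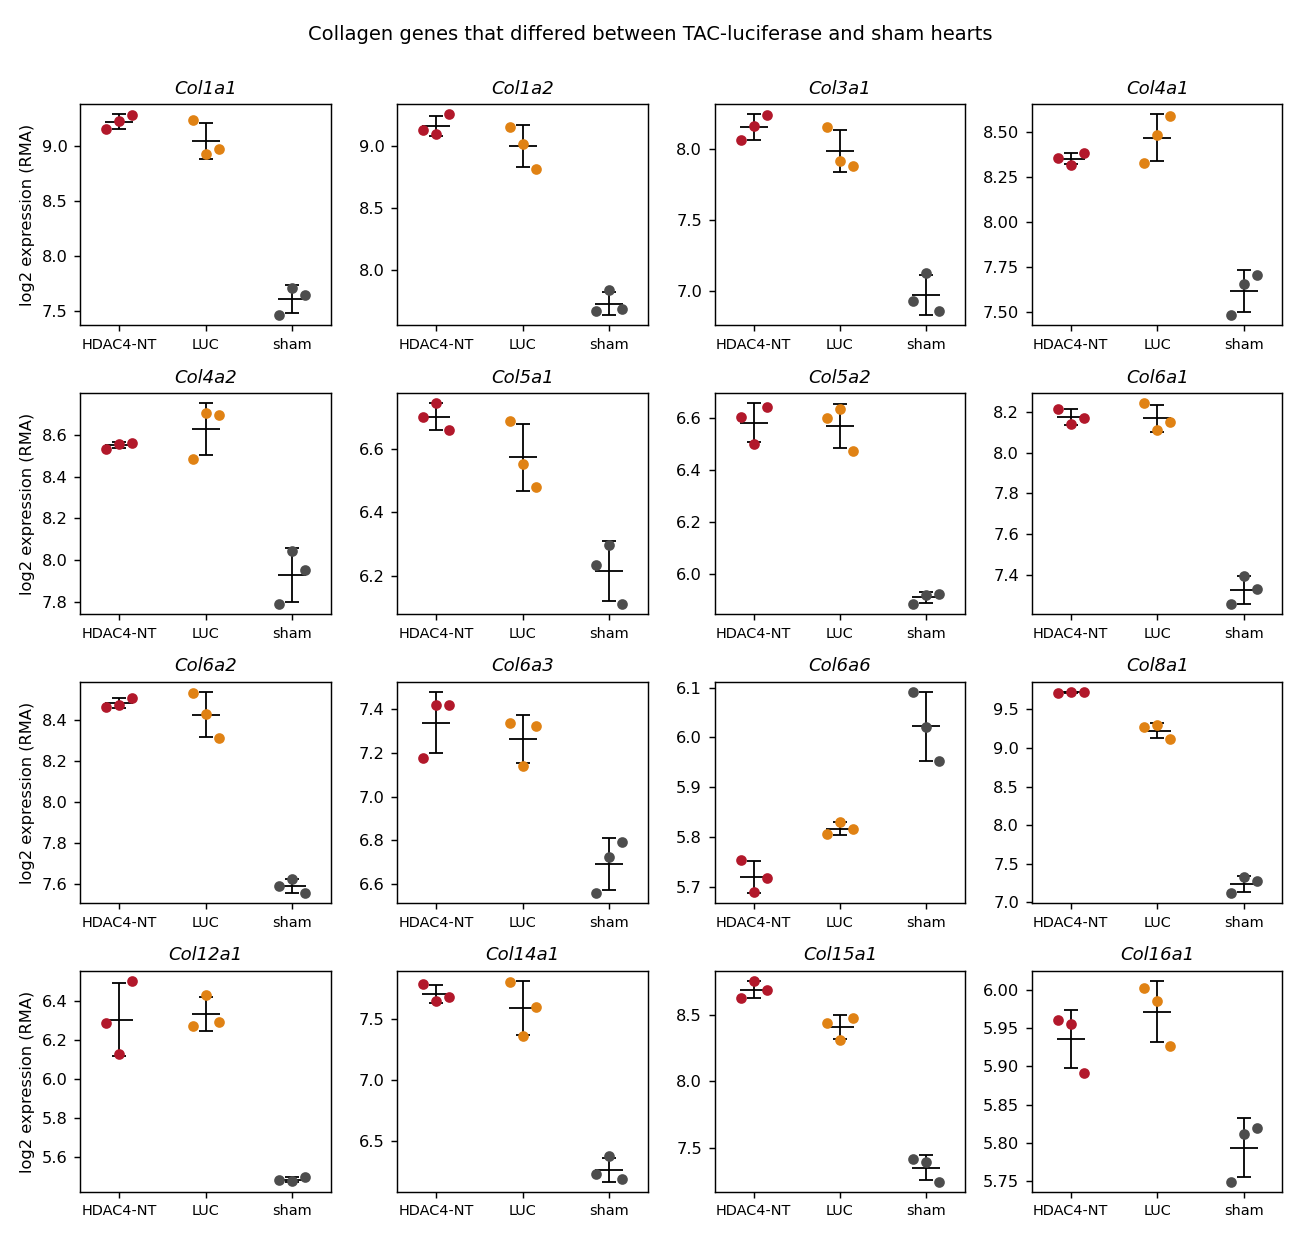
Log2 expression (RMA) of the 16 collagens called in TAC-luciferase against sham, with 1 point per heart in TAC-HDAC4-NT (red), TAC-luciferase (LUC, orange) and sham (grey), and the mean and SD of 3 hearts in black. Vertical axes differ between panels. The TAC and sham hearts do not overlap in any panel, which for Col12a1 is tied to how it passed the filter. Col6a6 is the gene with sham above both TAC groups.

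Between the TAC groups, TAC-HDAC4-NT against TAC-luciferase, 1 of 39 tested collagens was called, where 0.254% of all tested genes were. It was higher, where 0.143% of all tested genes were, and 0 were lower, where 0.111% were. At an unadjusted p of 0.05 there were 2 of 39, Col8a1 and Col15a1, where 14.3% of all tested genes passed that level. Groups did not overlap for 4 of 39, against 20.4% of all tested genes. Those 4 were Col8a1 and Col15a1, higher with the fragment, and Col5a3 and Col6a6, lower.

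The called gene was Col8a1, at 1.41-fold higher with the fragment (log2 difference 0.49, 95% interval 0.34 to 0.64, limma adjusted p 0.0388). Leaving out 1 array left its log2 difference between 0.44 and 0.53, while the adjusted p exceeded 0.05 without any of the TAC-HDAC4-NT hearts, TAC-luciferase heart 2 or 3, or sham heart 2 or 3, up to 0.194. Without TAC-luciferase heart 1 it was 0.51 (adjusted p 0.00703), and 5.53% of all genes then passed. Col15a1 was 0.28 log2 units higher with the fragment (95% interval 0.13 to 0.43, adjusted p 0.097, limma) and did not pass. Without TAC-luciferase heart 1 its difference was 0.30 (limma adjusted p 0.0639).

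For the main fibrillar genes, no difference between the TAC groups passed. The log2 difference, TAC-HDAC4-NT minus TAC-luciferase, was 0.18 for Col1a1 (95% interval -0.03 to 0.39), 0.16 for Col1a2 (-0.04 to 0.36) and 0.17 for Col3a1 (-0.04 to 0.38). For these 3 genes TAC-luciferase heart 1 lay among the TAC-HDAC4-NT hearts and hearts 2 and 3 lay below them. Without that heart the differences were 0.27, 0.24 and 0.26 for Col1a1, Col1a2 and Col3a1 (limma adjusted p 0.0942, 0.16 and 0.148). Col4a1 stood at -0.11 (-0.29 to 0.06) and Col4a2 at -0.08 (-0.25 to 0.10). Without TAC-luciferase heart 1 these moved the other way, to -0.18 for Col4a1 and -0.15 for Col4a2, and neither was called. Outside Col8a1, the log2 differences of the other 38 ran from -0.11 to 0.28, and the widest limits of their intervals were -0.29 and 0.43. These intervals are not adjusted for the number of genes.

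**Figure D3:**
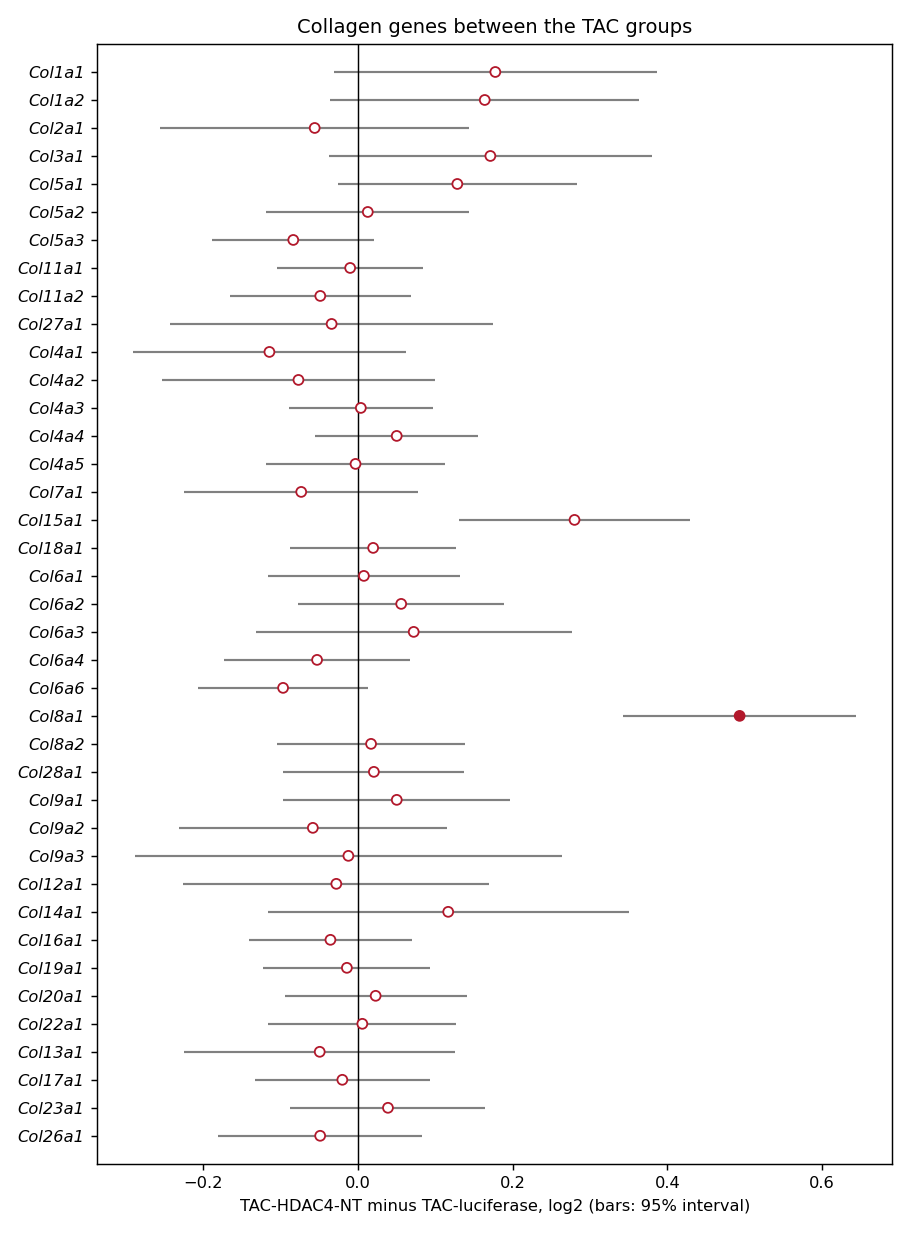
Difference in log2 expression between TAC-HDAC4-NT and TAC-luciferase for the 39 tested collagens, with 95% intervals from limma, 3 arrays a group. Col8a1 (filled) is the called gene, at 0.49, and Col15a1 is next, at 0.28.

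The difference between 2 chains was taken within each array for 6 pairs, and compared between groups by an exact two-sided permutation test, in which 3 arrays against 3 cannot give a p below 0.1. Col1a1 minus Col3a1 was 1.09, 1.07 and 1.05 in TAC-HDAC4-NT, 1.08, 1.01 and 1.09 in TAC-luciferase, and 0.54, 0.59 and 0.79 in sham hearts. This within-array difference was larger than in sham by 0.43 log2 units in TAC-HDAC4-NT and by 0.42 in TAC-luciferase, with no overlap of the hearts. Its exact permutation p was 0.1 each, the smallest possible here, and 0.15 after Benjamini-Hochberg adjustment over the 6 pairs. Between the TAC groups this difference was 0.01 (exact permutation p 0.8, adjusted 0.96). No pair could pass with 3 arrays against 3, so the test does not decide between pairs. A difference between probe sets is not a ratio of molecules.

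Col8a1 minus Col8a2 averaged 3.93 ± 0.04 in TAC-HDAC4-NT, 3.46 ± 0.09 in TAC-luciferase and 1.45 ± 0.03 in sham hearts (SD, n = 3), with no overlap between groups (exact permutation p 0.1 for each comparison). After adjustment the exact permutation p was 0.15 in each comparison with sham and 0.6 between the TAC groups. Col8a2 stayed at 5.71 to 5.87 on all arrays, close to the filter value, so this difference mainly restates that of Col8a1. The pairs of type I and type IV chains gave smaller differences from sham. Col1a1 minus Col1a2 averaged 0.06 ± 0.06 in TAC-HDAC4-NT, 0.05 ± 0.13 in TAC-luciferase and -0.13 ± 0.09 in sham hearts (SD, n = 3, exact permutation p 0.1 and 0.2 against sham). Col4a1 minus Col4a2 averaged -0.20 ± 0.04 in TAC-HDAC4-NT, -0.16 ± 0.06 in TAC-luciferase and -0.31 ± 0.07 in sham hearts (SD, n = 3, exact permutation p 0.1 each against sham). Col5a1 minus Col5a2 averaged 0.12 ± 0.12 in TAC-HDAC4-NT, 0.00 ± 0.08 in TAC-luciferase and 0.30 ± 0.10 in sham hearts (exact permutation p 0.2 and 0.1 against sham). Col6a1 minus Col6a2 was -0.30 ± 0.05, -0.26 ± 0.08 and -0.26 ± 0.06 in TAC-HDAC4-NT, TAC-luciferase and sham hearts, and overlapped in all comparisons (exact permutation p 0.2 to 0.9).

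**Figure D4:**
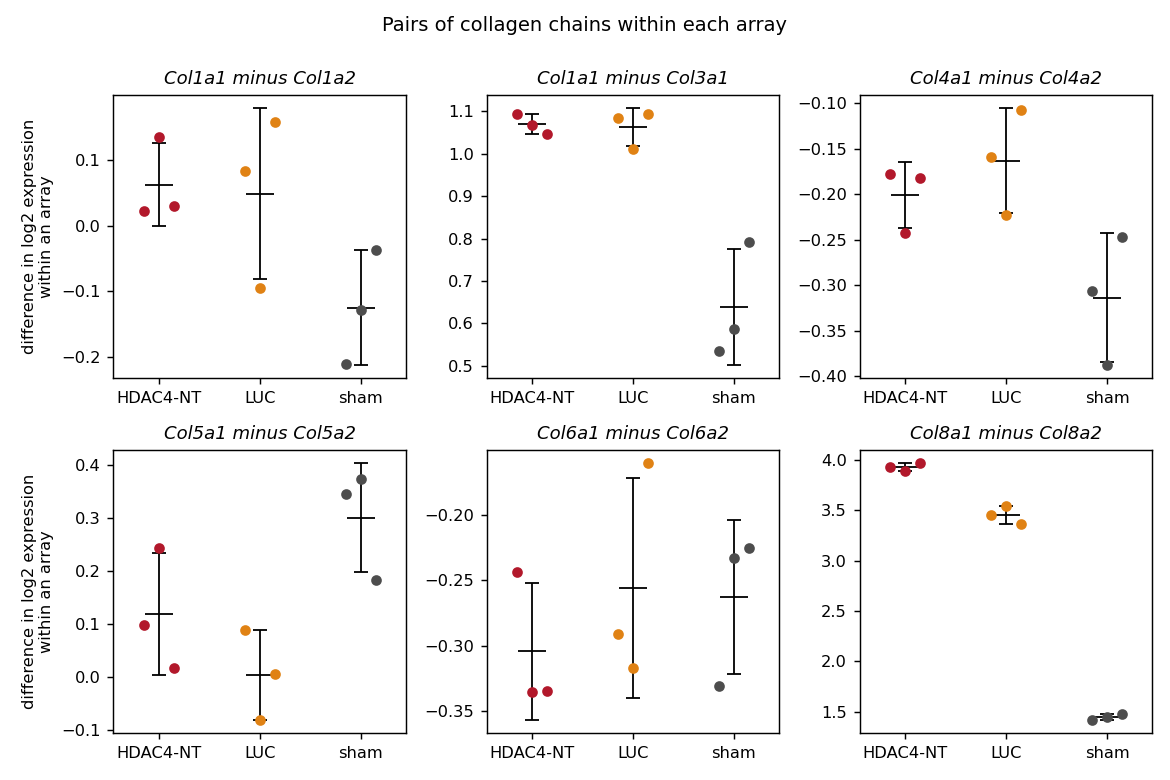
Difference in log2 expression between 2 collagen genes within each array, for 6 pairs, with 1 point per heart and the mean and SD of 3 hearts. Col1a1 minus Col3a1 lies at 1.01 or above in every TAC heart of both groups and at 0.79 or below in every sham heart, while Col6a1 minus Col6a2 overlaps between groups.

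Genes that fold, process and bind collagen were read from lists of the collagen pathway. Of 17 tested folding and hydroxylation genes, 10 were higher and 1 lower in TAC-HDAC4-NT than in sham, and 8 higher and 1 lower in TAC-luciferase. Of all tested genes, 10.5% were higher and 12.3% lower in TAC-HDAC4-NT, and 11.2% and 14.9% in TAC-luciferase. P3h2, which hydroxylates prolines of type IV collagen among others, was higher by 1.22 log2 units in TAC-HDAC4-NT and by 1.34 in TAC-luciferase, and P3h3 by 0.58 and 0.54. P3h4, a partner of P3h3 in lysine hydroxylation, was the gene called lower, at -0.56 and -0.63. Of 9 tested procollagen processing and cross-linking genes, 7 exceeded sham in TAC-HDAC4-NT and 7 in TAC-luciferase, and 6 lay above the filter value on all 9 arrays. Lox, called higher in TAC-luciferase, averaged 5.55 in sham hearts, under the filter value, so that call is tied to how it passed the filter. Pcolce, the enhancer of procollagen cleavage, stood at 1.21 in TAC-HDAC4-NT and 1.07 in TAC-luciferase. The lysyl oxidase genes Loxl1 and Loxl3, which cross-link matrix fibres, stood at 1.22 and 1.28 in TAC-HDAC4-NT and at 1.21 and 1.49 in TAC-luciferase.

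Of 7 tested collagen receptors, 5 exceeded sham in TAC-HDAC4-NT and 3 in TAC-luciferase, where 10.5% and 11.2% of all tested genes did. Mrc2, a receptor that takes up collagen fragments, stood at 1.04 in TAC-HDAC4-NT and 0.94 in TAC-luciferase, and the receptor kinase Ddr1 at 0.48 and 0.28. All 3 tested collagen-degrading proteases, Mmp2, Mmp14 and Ctsk, were higher in both comparisons, Mmp2 by 1.32 log2 units in TAC-HDAC4-NT and 1.43 in TAC-luciferase. Of the 6 proteases listed, 2 lay above the filter value on all 9 arrays. Ctsk averaged 5.50 in sham hearts, under the filter value, so its calls are tied to how it passed the filter. Between the TAC groups 0 genes of these 4 lists passed, where 0.254% of all tested genes did. The largest differences were -0.54 for Lox (SE 0.15, adjusted p 0.147), -0.50 for Plod2, a lysyl hydroxylase (SE 0.17, adjusted p 0.223), and 0.44 for Itga1, an integrin subunit (SE 0.10, adjusted p 0.0801). At an unadjusted p of 0.05 there were 1 of 17 folding, 3 of 9 processing, 2 of 7 receptor and 0 of 3 protease genes, where 14.3% of all tested genes passed that level.

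Markers of cell types were compared with sham in the same way. Of all tested genes, 10.5% were higher and 12.3% lower in TAC-HDAC4-NT than in sham, and 11.2% and 14.9% in TAC-luciferase. Of 8 fibroblast markers, 4 exceeded sham in TAC-HDAC4-NT and 4 in TAC-luciferase, and the mean log2 level of the list was 9.29 to 9.39 in TAC-HDAC4-NT, 9.15 to 9.30 in TAC-luciferase and 8.80 to 8.92 in sham hearts. Of 6 tested activated fibroblast markers, 5 were higher in each comparison, and 5 lay above the filter value on all 9 arrays. The mean level of the list was 8.66 to 8.90, 8.58 to 8.62 and 6.86 to 6.93 in the same order of groups. Among these markers Postn was higher than in sham by 3.72 log2 units in TAC-HDAC4-NT and 3.39 in TAC-luciferase. Of 8 macrophage markers, 5 were higher in TAC-HDAC4-NT and 4 in TAC-luciferase than in sham, with mean levels of 7.15 to 7.20, 7.20 to 7.28 and 6.72 to 6.91. Of the 8, 7 lay above the filter value on all 9 arrays. Cd14, called higher in TAC-luciferase, averaged 5.58 in sham and 5.65 in TAC-HDAC4-NT hearts, under the filter value. Its call is tied to how it passed the filter. The part of fibroblasts and macrophages in the collagen values was not tested.

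The remaining lists held fewer called genes. The cardiomyocyte markers had a mean level of 13.09 to 13.11 in TAC-HDAC4-NT, 13.04 to 13.12 in TAC-luciferase and 13.04 to 13.18 in sham hearts, and the endothelial markers 9.21 to 9.29, 8.86 to 9.07 and 9.08 to 9.13. Of 8 cardiomyocyte markers, Mybpc3 was higher than in sham in TAC-HDAC4-NT (0.35) and in TAC-luciferase (0.28), and Myh6 was lower in TAC-luciferase (-0.23). Of 8 endothelial markers, Cdh5 was higher in TAC-HDAC4-NT (0.31) and in TAC-luciferase (0.23), and Kdr (-0.68) and Tie1 (-0.22) were lower in TAC-luciferase. The TAC groups did not overlap in the mean endothelial level, which was higher with the fragment. Nor did they overlap for activated fibroblast markers, also higher with the fragment, or for macrophage, epicardial and skeletal muscle markers, lower with it. These means include genes that failed the filter. Of single tested genes, 4 of 8 endothelial, 0 of 6 activated fibroblast and 2 of 8 macrophage markers did not overlap between the TAC groups. The counts were 1 of 2 epicardial and 1 of 4 skeletal muscle markers, against 20.4% of all tested genes. In these lists 0 genes were called between the TAC groups, where 0.254% of all tested genes were. The part of any of these lists in the differences in Col8a1 and Col15a1 was not tested. The smooth muscle and pericyte list did not overlap between TAC groups either, at 8.10 to 8.12 in TAC-HDAC4-NT and 7.91 to 8.04 in TAC-luciferase, with 0 of 7 tested genes called between them and Pdgfrb at 0.45 (adjusted p 0.0519). Against sham, Cspg4 (0.82) and Pdgfrb (0.63) were higher and Myh11 (-0.24) was lower in TAC-HDAC4-NT, and Cspg4 (0.39) was higher in TAC-luciferase. Atrial markers ranged widely within groups, from 6.98 to 7.58 in TAC-HDAC4-NT, 7.02 to 8.20 in TAC-luciferase and 6.85 to 7.52 in sham hearts. Of them Nppa, also a gene of loaded ventricles, was higher than in sham by 2.20 log2 units in TAC-HDAC4-NT and 2.04 in TAC-luciferase, and Dkk3 by 0.38 and 0.46. Epicardial markers (2 of 6 tested) lay at 5.63 to 5.65, 5.70 to 5.92 and 5.64 to 5.69 in the same order of groups, and Wt1 was higher in TAC-luciferase than in sham (0.74). Of 4 tested skeletal muscle and 3 tested Schwann cell markers, 0 passed in any comparison.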

How the data were processed

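Whole hearts of 9 mice were profiled on Affymetrix arrays as biotin-labelled cRNA from Trizol-extracted total RNA, per the labels' protocols. The submitters' processing notes name RMA as the step behind the deposited log2 values. Its version was not given in the sources used here. Sorted values were identical in all 9 columns, so the arrays are quantile normalized. The table holds 21225 probe sets, of which 20239 have 1 gene symbol in the platform annotation, none has several, and 986 are unnamed. It gives no detection p, so precision is set by the number of arrays. The median standard error of a log2 difference between TAC-luciferase and sham was 0.0697.

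Groups came from the sample titles. The labels describe animals as the unit, 3 per group. A linear model over all 9 arrays was fitted using limma 3.58.1 under R 4.3.3 with empirical Bayes moderation (6 residual and 3.23 prior degrees of freedom) and tested on simulated data. Lists are described by counts and medians, with no set test. The members, gene lists and tests were chosen with earlier results of these data known. Every collagen gene could be named. From the other lists, up to 4 called genes with the smallest p were eligible per comparison, or 2 where none was called. Promoter windows came from RefSeq (GRCm38.p6). Plots were made in Python 3.11.15 using matplotlib 3.10.9.

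Alternatives covered the filter, variance prior, cyclic loess scaling, array weights, arrays in the fit, blocks, thresholds and left-out arrays.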

Additional observations from a re-analysis of the deposited data

How the results depend on the processing

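The number of collagens higher than in sham stayed within 1.5 times of the reported one under every alternative run, between 13 and 19 in TAC-HDAC4-NT and between 12 and 18 in TAC-luciferase, and no called gene changed sign. Without a filter, all 44 collagens were tested, and 18 were higher in TAC-HDAC4-NT and 17 in TAC-luciferase than in sham. Col6a6, the collagen called lower, gave a count of 0 in both comparisons with sham under the 60th percentile filter, which leaves it out, and under a minimum of 1.5-fold. In TAC-luciferase it also gave 0 at an adjusted p under 0.01 and without TAC-luciferase hearts 2 and 3 together, where its adjusted p was 0.105.

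Between the TAC groups the count of 1 higher collagen, Col8a1, was 0 with no filter, with only the 6 arrays compared, at an adjusted p under 0.01, at a minimum of 1.5-fold and without TAC-luciferase hearts 2 and 3 together, and between 0 and 1 when 1 array was left out. It was 2 with array weights and at an adjusted p under 0.10, Col15a1 being added. Cyclic loess scaling shifted the median gene by 0.03 log2 units in TAC-luciferase against sham and changed no count of collagens there, while the split of all called genes was 1625 higher and 1521 lower, against 1405 and 1878 as reported. All called genes in that comparison numbered 3283, and 1748 at an adjusted p under 0.01 and 775 at a minimum of 1.5-fold.

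The replicate numbers did not pair the hearts, with correlations of same-numbered deviations from -0.12 to 0.20. The replicate block gave 14 higher and 1 lower collagen in TAC-HDAC4-NT, 15 and 1 in TAC-luciferase, and 1 between the TAC groups, but 106 genes in all between the TAC groups, against 32. With the first number of that code fitted as a random block, 17 collagens were higher and 1 lower in TAC-HDAC4-NT, 17 and 1 in TAC-luciferase, and 1 higher between the TAC groups, Col8a1 (limma adjusted p 0.0209). The block correlation in that fit was -0.113, and all genes called in TAC-luciferase against sham numbered 3988, against 3283 as reported. Since no code number occurs in 2 groups, the fit cannot separate the code from the group. TAC-luciferase hearts 2 and 3 were left out together because they share a code number. In all, genes called between the TAC groups ranged from 0 with only the 6 arrays compared to 827 with array weights.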
